A study of Mus musculus with 16 samples.

Results

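The cytosolic ribosomal protein genes encode the proteins of the large and the small subunit of the ribosome that works in the cytoplasm. They were taken by gene name (Rpl and Rps names with a number, Rplp0 to Rplp2 and Rpsa, without pseudogene names) among the 39179 gene rows of the mouse count tables. Of 84 matching rows, 80 had at least 20 counts in all 16 libraries and are described here, 49 of the large and 31 of the small subunit. The 4 rows left out were Rps12l1, with 19 to 51 counts and 20 or more in 15 of 16 libraries, Rpl39l with 0 to 18 counts, Rpl3l with 0 to 12 counts, and Rpl10l with no count in any library. All 80 passed the filter on low counts used for the tests, which kept 18074 genes.

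Each ribosome holds 1 copy of nearly every ribosomal protein, and cells keep the proteins in balance with each other and with ribosomal RNA. Ribosomal protein mRNAs are short, abundant and long-lived, and most begin with a terminal oligopyrimidine (TOP) tract, a cytosine followed by further pyrimidines, through which the kinase mTOR and the RNA-binding protein Larp1 control their translation. In neurons a part of these mRNAs is found in axons and dendrites. The family also has an unusually large number of processed pseudogenes, copies of the mRNA written back into the genome, and reads that fit a gene and its copies equally well cannot be given to either.

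RNA came from cortical or hippocampal neurons, as labelled, of adult mice named TERT-AD, strain B6.129S6.SvEvTac, that had received tamoxifen or vehicle (control). The groups were hippocampal tamoxifen, hippocampal control, cortical tamoxifen and cortical control, with 4 libraries each. Neighbouring libraries (1 and 2, 3 and 4) of a group were so alike that their counts were added, giving 2 samples per group, called A and B; whether the libraries of a sample come from the same animal is not stated. The labels name neither a promoter or Cre behind the TERT-AD name, nor what tamoxifen acts on, nor its dose and time. With 2 samples per group that may not be separate animals, p-values speak only of the spread among the samples at hand, which may be technical.

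Libraries held 33236178 to 57195203 counts in genes and samples 83527470 to 108293362. Tert, the catalytic subunit of telomerase, was at 0.473 to 3.89 CPM (counts scaled to a library total of 1e+06 counts in genes), and sample A was below sample B in all 4 groups. Markers of other brain cells were abundant in samples labelled as neurons: 6 oligodendrocyte genes (Mbp, Mog and Cnp among them) summed to 24010 to 72555 CPM and 6 neuronal genes (Rbfox3, Snap25, Syt1, Slc17a7, Gad1, Gad2) to 785 to 3147 CPM, with no marker at 0 in all libraries. Cortical tamoxifen sample B stood apart, with 3147 CPM of the neuronal and 24010 CPM of the oligodendrocyte genes, against 1061 to 1189 CPM and 52875 to 67317 CPM in the other cortical samples. The low oligodendrocyte sum lay mainly in Mbp, at 16449 CPM against 36052 to 46489 CPM, and Mobp, at 6008 CPM against 14303 to 18615 CPM. The less abundant Mog and Mag were highest of the cortical samples there, at 30.9 CPM against 18.4 to 27.7 CPM and at 100.3 CPM against 57.3 to 86.3 CPM. In such bulk RNA, fewer cells of a type and less RNA per cell cannot be told apart.

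The starts of 4 genes show the tract that gives TOP mRNAs their name, and that of the paralog Rps27l is set beside them. They are printed 5′ to 3′ in the gene's direction, 20 bases before and 15 bases from the start annotated by RefSeq in GRCm38.p6, with the pyrimidine run that begins at the start in capitals.
Rplp2, chr7:141447631-141447665, plus strand: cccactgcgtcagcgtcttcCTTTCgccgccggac
Rps6, chr4:86857353-86857387, minus strand: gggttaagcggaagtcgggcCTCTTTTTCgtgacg
Rpl15, chr14:18270972-18271006, minus strand: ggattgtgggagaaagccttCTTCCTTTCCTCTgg
Rps27, chr3:90213634-90213668, minus strand: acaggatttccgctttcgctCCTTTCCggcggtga
Rps27l, chr9:66946066-66946100, plus strand: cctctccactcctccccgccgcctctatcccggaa
Rplp2, Rps6, Rpl15 and Rps27 begin with a run of 5 to 13 pyrimidines led by a cytosine. The annotated start of Rps27l is a guanine, and the bases right after it are CCTCT. Most starts of the 80 genes likewise lack a run at the annotated base, so this does not set Rps27l apart. RefSeq starts were found for 60 of the 80 genes, with 71 starts in all. A cytosine followed by at least 4 pyrimidines stood exactly at 13 of these 71 starts (18.3%), compared with 2.51% of all 32851 starts in the table. The letters CTTTCC occurred on the sense strand within 50 bases of the start at 22 of 71 (31.0%) and at 4.69% of all, and on either strand at 33.8% and 8.97%; these matches can overlap the run at the start, and an annotated start that is off by a base loses the first kind of match.

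Levels per exon length are given as RPKM, the deposited reads per kilobase of exon, scaled for library size, averaged over the 16 libraries. They spanned more than 3 orders of magnitude only with the row named Rpl24, and the next lowest gene was at 5.26 RPKM. Rplp1, a protein of the stalk on which elongation factors are recruited, was highest at 1275 ± 111 RPKM (SD). It was followed by Rps15, a small subunit protein near the decoding centre, at 829 ± 61.2 RPKM and by Rps27 at 757 ± 51.7 RPKM. Rps12 and Rps24 completed the first 5, at 574 ± 61.8 RPKM and 463 ± 32.2 RPKM. The first 5 thus held 4 proteins of the small subunit and 1 of the large, and the median over the 80 genes was 105 RPKM.

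The lower end held Rps27l at 7.29 ± 2.53 RPKM, Rpl7l1, a paralog of Rpl7 that acts in ribosome assembly, at 5.26 ± 1.36 RPKM, and Rpl24 at 0.915 ± 0.258 RPKM. RPKM divides by the union of all annotated exons, which is 7429 bases for Rpl24 and 251 bases for Rps27, so long annotated isoforms lower it. The row named Rpl24 overlaps the rows of Pcnp and RP24-288C12.6, and rows on its own strand cover 19.5% of its span. It runs from base 55973883 to 56008913 of chromosome 16, and the longest GENCODE M21 transcript of its gene ID has 4920 bases. Whether this gene ID belongs to the ribosomal protein gene was not tested, so the values of the row may not be those of a ribosomal protein. This holds wherever the row is named or counted among the 80 genes below. Another gene row overlapped 43 of the 80 genes and on the same strand 32 of them. The counting's strand setting is not given in the sources used here, so the counts of these 43 are less certain.

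**Figure D1:**
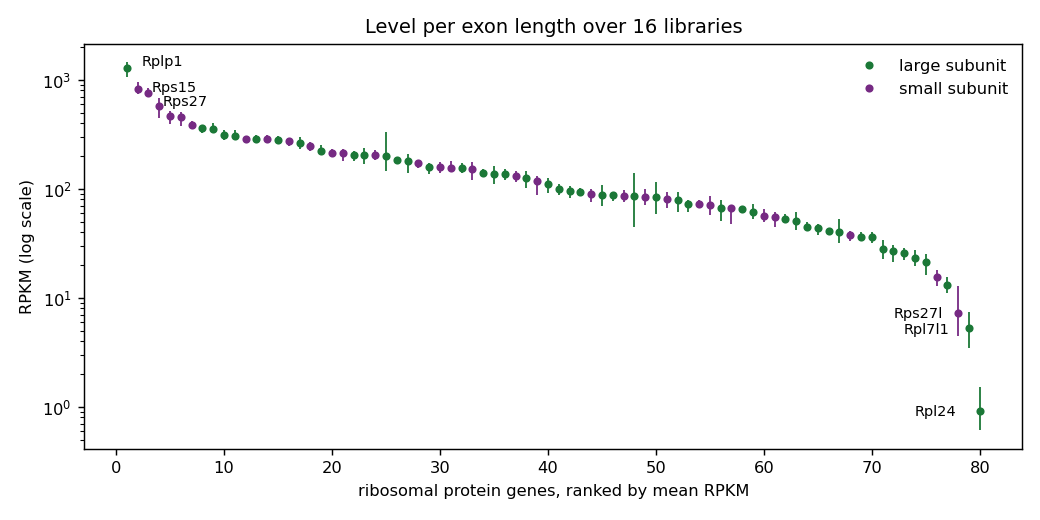
Mean RPKM of each of the 80 ribosomal protein genes (log axis), ranked, with a line from the lowest to the highest of the 16 libraries; green is the large and purple the small subunit. Rplp1 leads at 1275 RPKM, the row named Rpl24 is last at 0.915 RPKM, and the lines of most genes are short beside the spread between genes.

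Per exon length, 3 of 4 paralogs among the 80 genes stood below the gene they resemble. The other, Rpl22l1, was at 39.99 ± 6.63 RPKM, above Rpl22 at 28.2 ± 3.13 RPKM. These RPKM divide by 485 and 2906 annotated exon bases. On gene-count CPM the order was reversed, with means over the 8 samples of 31.6 CPM for Rpl22l1 and 134 CPM for Rpl22. Rpl36al was at 13.1 ± 1.49 RPKM and Rpl36a at 41.0 ± 1.59 RPKM. Rpl7l1 was at 5.26 ± 1.36 RPKM and Rpl7 at 61.6 ± 6.14 RPKM, and Rps27l at 7.29 ± 2.53 RPKM and Rps27 at 757 ± 51.7 RPKM. Of the paralogs that are known for striated muscle and testis, Rpl3l and Rpl10l had the 0 to 12 and 0 counts given above, while Rpl3 was at 204 ± 20.4 RPKM and Rpl10 at 95.5 ± 7.05 RPKM. Rpl39l, with at most 18 counts in a library, stood beside Rpl39 at 44.2 ± 2.07 RPKM.

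Summed over the 80 genes, ribosomal protein mRNA made up a narrow range of all counts. It was 2.53 and 2.34% of gene counts in hippocampal tamoxifen samples A and B, 2.55 and 2.40% in hippocampal controls, 2.70 and 2.28% in cortical tamoxifen samples, and 2.52 and 2.44% in cortical controls. Sample A was above sample B in every group, and the groups overlapped in both tamoxifen comparisons and in both region comparisons. Large subunit counts were 1.24 to 1.32 times those of the small subunit in the 8 samples.

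The size of the difference between regions depended on the denominator. Mitochondrial transcripts took 25.2 to 25.6% of gene counts in hippocampal tamoxifen samples, 24.0 to 25.4% in hippocampal controls, 20.4 to 29.9% in cortical tamoxifen samples and 31.0 to 31.5% in cortical controls. Without them the ribosomal protein share was 3.40 and 3.12% in hippocampal tamoxifen samples, 3.42 and 3.15% in hippocampal controls, 3.85 and 2.87% in cortical tamoxifen samples, and 3.65 and 3.57% in cortical controls. The 2 hippocampal controls then lay below the 2 cortical controls, which they did not on all gene counts. On library sizes scaled by TMM (edgeR's trimmed mean of M values, with factors of 0.826 to 1.14), the share was 2.24 and 2.21% in hippocampal controls, against 2.91 and 2.91% in cortical controls. The tamoxifen groups overlapped on this scale, with 2.27 and 2.20% in hippocampal samples, against 3.27 and 2.00% in cortical samples.

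The stalk and other members of special role were steadier than Rplp0. Rplp1 stood at 1028 and 944 CPM in the hippocampal tamoxifen samples, 1052 and 1102 CPM in the hippocampal control samples, 1128 and 849.8 CPM in the cortical tamoxifen samples and 1051 and 1075 CPM in the cortical control samples, and Rplp2, its partner in the stalk, at 316 and 296 CPM in the hippocampal tamoxifen samples, 328 and 322 CPM in the hippocampal control samples, 327 and 287 CPM in the cortical tamoxifen samples and 317 and 316 CPM in the cortical control samples. Cortical tamoxifen B was lowest for both. Rpsa, the small subunit protein also known as a laminin receptor, stood at 772 and 692 CPM in the hippocampal tamoxifen samples, 783 and 747 CPM in the hippocampal control samples, 796 and 670.4 CPM in the cortical tamoxifen samples and 795 and 745 CPM in the cortical control samples, and Rps27a, made as a fusion with ubiquitin, at 213 and 210.1 CPM in the hippocampal tamoxifen samples, 223 and 214 CPM in the hippocampal control samples, 233 and 196 CPM in the cortical tamoxifen samples and 226 and 194 CPM in the cortical control samples. For Rpsa too, cortical tamoxifen B was the lowest sample.

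**Figure D2:**
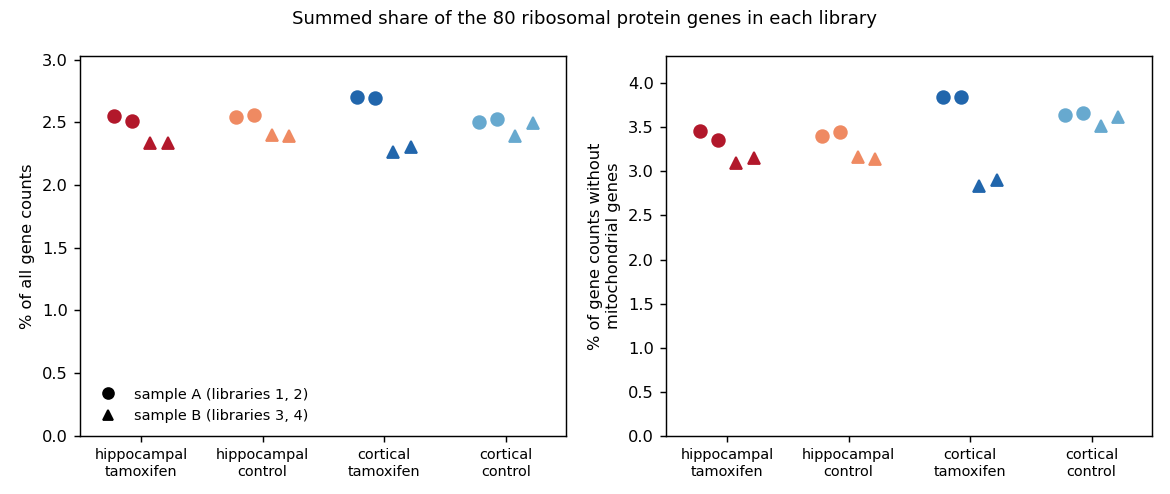
Summed counts of the 80 genes as a percentage of all gene counts (left) and of gene counts without mitochondrial genes (right) in each of the 16 libraries; circles are the libraries of sample A, triangles those of sample B. Cortical tamoxifen has both the highest sample, A with 3.85%, and the lowest, B with 2.87%, on the right axis.

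Most members kept steady levels on gene-count CPM. The SD of log2 CPM over the 8 samples had a median of 0.11 for the 80 genes, compared with 0.27 for 3773 other genes of like level and 0.29 for all tested genes. On TMM-scaled CPM this order turned round, with 0.26 for the 80 genes and 0.23 for the genes of like level, so the steadiness holds for shares of all counts only. Among the steadiest were Rpl11 (SD 0.047), Rps25 (0.053) and Rps7 (0.057). Rpl11, which with Rpl5 binds Mdm2 when ribosome assembly is disturbed, stood at 282 and 277 CPM in the hippocampal tamoxifen samples, 290.3 and 285 CPM in the hippocampal control samples, 300.5 and 274 CPM in the cortical tamoxifen samples and 279 and 296 CPM in the cortical control samples. Its highest sample was cortical tamoxifen A and its lowest cortical tamoxifen B, and the cortical groups overlapped, while both hippocampal tamoxifen samples lay just below both hippocampal controls on this scale.

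At the other end, 7 genes had an SD above 0.2, led by Rplp0 (0.54), Rps27l (0.41), Rpl21 (0.35) and Rpl24 (0.34). Rps27l, a target of p53 in human cells, was at 9.80 and 11.3 CPM in the hippocampal tamoxifen samples, 16.04 and 10.8 CPM in the hippocampal control samples, 7.60 and 7.12 CPM in the cortical tamoxifen samples and 7.69 and 6.70 CPM in the cortical control samples. On this scale all hippocampal samples were above all cortical samples, with hippocampal control A highest. On TMM-scaled CPM this separation did not hold, as hippocampal tamoxifen A lay just below cortical control A. The row named Rpl24 was at 11.7 and 11.8 CPM in the hippocampal tamoxifen samples and 11.6 and 11.8 CPM in the hippocampal control samples. It was at 8.66 and 16.8 CPM in the cortical tamoxifen samples and 8.30 and 8.08 CPM in the cortical control samples. Cortical tamoxifen B alone stood well above the other 7 samples.

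**Figure D3:**
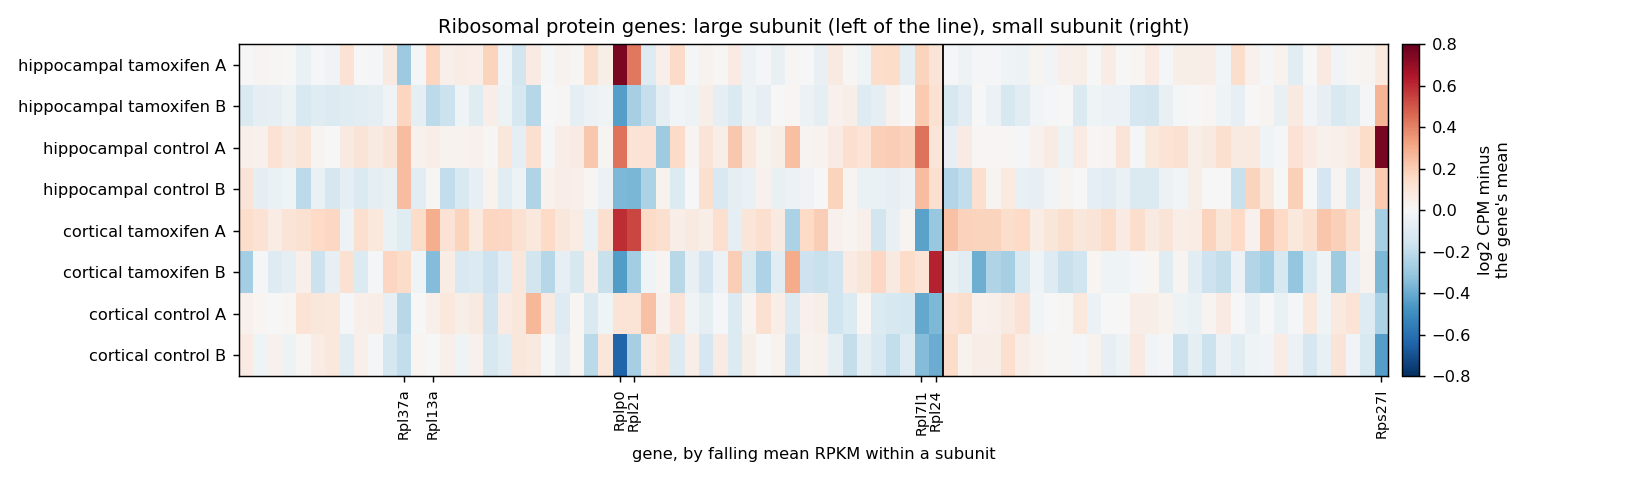
Log2 CPM (0.5 added) of each gene minus its mean over the 8 samples, in colour from blue (-0.8) to red (0.8); rows are samples, columns the 80 genes, with names at the 7 whose SD over the samples was above 0.2. Cortical tamoxifen A is mostly red and cortical tamoxifen B mostly blue. Of the 7 named genes, Rpl24, Rpl7l1 and Rpl37a run the other way between these samples.

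Tamoxifen was compared with control in the cortex first, in a fit over all 18074 genes. None of the 80 genes passed an adjusted p of 0.05 in edgeR's quasi-likelihood test, where 0% of all tested genes were called in either direction; 0 of the 80 had an unadjusted p under 0.05 (2.47% of all genes higher and 2.51% lower), and DESeq2, limma voom and edgeR on 16 libraries called 0 of them as well, where these tools called 0.0443, 0.0896 and 3.36% of all genes. Their median log2 fold change was -0.14, against 0.04 for all genes, and 72 of 80 were negative (44.6% of all genes); with library size alone as scaling the medians were 0.015 and 0.25 and 34 were negative. Relative to the median of all genes, the 80 genes lay -0.23 to -0.17 over 5 scalings. A change of scaling moves all genes by nearly the same amount, so this measure, here and below, cannot test the scaling. The medians of the large and the small subunit were -0.13 and -0.15.

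The cortical value rested on the 2 tamoxifen samples, which lay far apart. Without cortical tamoxifen A, the median was -0.51, and 47 of the 80 genes were called lower (4.53% of genes in that fit) and Rpl24 higher (6.14%). Without cortical tamoxifen B, the median was 0.14 with 3 genes negative and 0 called. Between these samples the marker sums also differed: B had 3147 CPM of neuronal markers and 24010 CPM of oligodendrocyte markers, while A had 1061 and 67317 CPM. Choroid plexus markers (Ttr, Kl, Folr1, Kcne2, Clic6, Otx2) summed to 5.40 CPM in B and 5032 CPM in A; the part of these differences in the result was not tested.

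The largest negative values in the cortex belonged to Rpl9, Rps29, Rpl30 and Rps20. Rpl9, a large subunit protein, stood at 704 and 435 TMM-scaled CPM in the cortical tamoxifen samples, against 763 and 689 TMM-scaled CPM in the cortical control samples, with a log2 fold change of -0.35 (SE 0.24, adjusted p = 0.830). Rps29, of the small subunit, stood at 679 and 371 TMM-scaled CPM in the cortical tamoxifen samples, against 619.5 and 665 TMM-scaled CPM in the cortical control samples, with a log2 fold change of -0.29 (SE 0.26, adjusted p = 0.842). In Rps29 tamoxifen A lay above and tamoxifen B below both controls, and in Rpl9 tamoxifen A lay between the controls and B below them. Rpl30 and Rps20 had log2 fold changes of -0.25 and -0.25, with A above and B below both controls.

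The largest positive values were those of the row named Rpl24 (0.40), Rplp0 (0.29), Rpl21 (0.15) and Rpl37a (0.053). Rpl24 stood at 10.5 and 14.8 TMM-scaled CPM in the cortical tamoxifen samples, against 9.59 and 9.63 TMM-scaled CPM in the cortical control samples, with a log2 fold change of 0.40 (SE 0.18, adjusted p = 0.830), and was the only one of the 80 whose cortical tamoxifen samples were both above both controls (16.2% of all genes), with 0 of the 80 below (15% of all genes). Rps6, the small subunit protein phosphorylated by S6 kinases downstream of mTOR, had a log2 fold change of -0.20 (SE 0.26, adjusted p = 0.869).

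In the hippocampus the 80 genes centred on no change. Their median log2 fold change was -0.0014, against -0.0071 for all genes, with 41 negative and 39 positive (51.3% of all genes negative), and the 5 scalings put them 0.0047 to 0.0058 above the median of all genes. None passed the adjusted threshold in edgeR (0% of all genes in either direction); 0 had an unadjusted p under 0.05 (2.14% of all genes higher, 1.47% lower), and DESeq2, limma voom and edgeR on 16 libraries called 0, against 0.0551, 0.0179 and 1.9% of all genes. On TMM-scaled CPM, groups did not overlap for 10 genes that were higher (21% of all genes) and 8 that were lower (18.9%), shares below those of all genes.

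Rpl21, which had the largest positive value in the hippocampus, stood at 548 and 357 TMM-scaled CPM in the hippocampal tamoxifen samples, against 431 and 326 TMM-scaled CPM in the hippocampal control samples, with a log2 fold change of 0.26 (SE 0.42, adjusted p = 1). Rplp0 had 0.21 and Rpl27a 0.13. Rps27l had the largest negative value, with 8.80 and 10.6 TMM-scaled CPM in the hippocampal tamoxifen samples, against 14.0 and 9.92 TMM-scaled CPM in the hippocampal control samples and a log2 fold change of -0.30 (SE 0.24, adjusted p = 1), and its hippocampal control A alone was high. Rpl37a, Rps6 and Rpl7l1 had log2 fold changes of -0.25, -0.13 and -0.12. Single samples set part of these values: Rps27l was at -0.033 without hippocampal control A and -0.53 without hippocampal control B, and Rpl37a at -0.010 without hippocampal tamoxifen A and -0.54 without hippocampal tamoxifen B.

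The difference between the effects, hippocampal minus cortical, was itself tested. None of the 80 passed in edgeR (0% of all genes), 0 had an unadjusted p under 0.05 (2.66% of all genes positive, 2.77% negative), and the other tools called 0. Of all genes, edgeR on 16 libraries called 5.18% and limma voom 0.669%; DESeq2 gave an adjusted p to 68 of the 80 and to 904 genes in all, of which it called 0.996%. The median difference was 0.13, against -0.04 for all genes, with 69 positive and 11 negative (54.2% of all genes negative); library size alone gave -0.05 and -0.28. It was 0.53 without cortical tamoxifen A and -0.14 without cortical tamoxifen B. Rpl9 had the largest difference, 0.35 on the log2 scale, ahead of Rps15 (0.30) and Rpl12 (0.29), and Rpl24 (-0.36), Rpl37a (-0.30) and Rps27l (-0.18) the most negative.

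**Figure D4:**
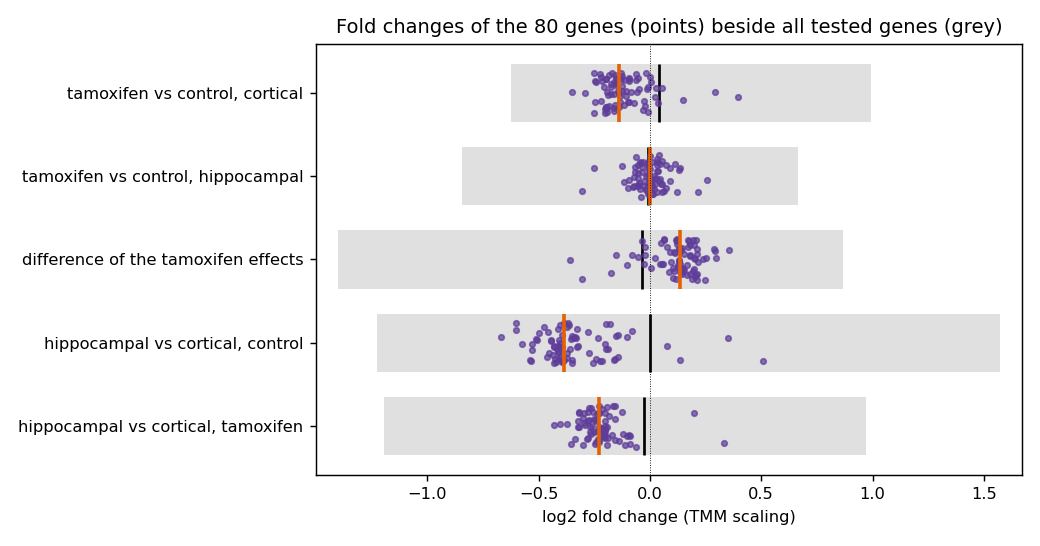
Log2 fold changes of the 80 genes (points, spread vertically to be seen) in the 5 comparisons, with their median in orange; grey bars run from the 5th to the 95th percentile of all tested genes and black lines are their medians. On TMM scaling the points lie left of the all-gene median in the cortical and both region comparisons, at medians of -0.14, -0.38 and -0.23, and with library size alone these medians are 0.015, 0.00015 and -0.03.

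Between the control regions nearly all members had values on 1 side on TMM scaling, though not with library size alone. In controls the median log2 fold change, hippocampal over cortical, was -0.38 on TMM scaling, against 0.0016 for all genes, with 76 of 80 negative (49.9% of all genes); with library size alone it was 0.00015, while all genes stood at 0.39. Measured against the median of all genes, the family lay at -0.39 under each of 5 scalings, a measure that by its construction hardly responds to the scaling. On TMM-scaled CPM, 74 of the 80 were lower without overlap between the 2 hippocampal and the 2 cortical controls (33.4% of all genes lower) and 4 were higher (34.6%). This depends on the scale: on gene-count CPM Rpl11, for example, overlapped, at 290.3 and 285 CPM against 279 and 296 CPM.

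None of the 80 passed the adjusted threshold in this comparison, where 2.71% of all genes were called higher and 3.48% lower in edgeR; at an unadjusted p under 0.05, 9 of the 80 were lower (13%) and 1 was higher (14.7%). DESeq2 called 2 lower, Rpl31 and Rps15, with adjusted p of 0.0388 and 0.0419 (8.59% of genes lower and 9.42% higher in that test). Counting all 16 libraries separately, edgeR called 48 lower (19.4%) and 2 higher (22.2%), and limma voom with a correlation within neighbouring pairs called 34 lower (10.7%) and 0 higher (9.5%). The fit without cortical tamoxifen A, and that without cortical tamoxifen B, each called 49 lower (11.3%) and Rpl7l1 higher (9.38%): these samples are in neither control group, but their distance from each other enters the shared estimate of the spread.

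Rps15 had the most negative value between the control groups, with 709 and 665 TMM-scaled CPM in the hippocampal control samples, against 1064 and 1120.4 TMM-scaled CPM in the cortical control samples and a log2 fold change of -0.67 (SE 0.24, adjusted p = 0.132). Rpl9 stood at 526 and 429.9 TMM-scaled CPM in the hippocampal control samples, against 763 and 689 TMM-scaled CPM in the cortical control samples, with a log2 fold change of -0.60 (SE 0.25, adjusted p = 0.167). Rpl34 stood at 143 and 117 TMM-scaled CPM in the hippocampal control samples, against 205 and 188 TMM-scaled CPM in the cortical control samples, with a log2 fold change of -0.60 (SE 0.22, adjusted p = 0.134). In all 3 both hippocampal controls were below both cortical controls. Rpl31 had a log2 fold change of -0.53 (SE 0.18, adjusted p = 0.110).

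The 4 rows that ran against the family were Rps27l, Rpl7l1, Rpl37a and the row named Rpl24, which may not be a ribosomal protein gene. Gm4149, a pseudogene copy of Rpl37a, ran opposite to Rpl37a on gene-count CPM. It was at 22.0 and 21.8 CPM in hippocampal controls and 43.1 and 45.1 CPM in cortical controls. Its part in the value of Rpl37a was not tested. Rps27l stood at 14.0 and 9.92 TMM-scaled CPM in the hippocampal control samples, against 8.88 and 7.99 TMM-scaled CPM in the cortical control samples, with a log2 fold change of 0.51 (SE 0.24, adjusted p = 0.227). Rpl7l1 stood at 25.9 and 23.9 TMM-scaled CPM in the hippocampal control samples, against 18.8 and 20.2 TMM-scaled CPM in the cortical control samples, with a log2 fold change of 0.35 (SE 0.12, adjusted p = 0.109). With library size alone as scaling, edgeR called Rps27l higher, at 0.90 with an adjusted p of 0.0495 (10.6% of genes higher, 0.852% lower). Both paralogs had positive values, while their family genes Rps27 (-0.53) and Rpl7 (-0.16) had negative values. The other paralogs had negative values, Rpl22l1 with -0.14 beside -0.14 for Rpl22, and Rpl36al with -0.19 beside -0.43 for Rpl36a.

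Between tamoxifen groups the median, hippocampal over cortical, was -0.23, against -0.03 for all genes, with 78 of 80 negative (52.5% of all genes); library size alone gave -0.03 and 0.12. None passed in edgeR, where 0.426% of all genes were called higher and 0.692% lower; 1 of the 80, Rpl31, had an unadjusted p under 0.05 (12% of all genes lower, 9.57% higher). DESeq2 and limma voom called 0, against 11.9 and 17.1% of all genes, and edgeR on 16 libraries 7 lower (18.4%) and 1 higher (14.5%). On TMM-scaled CPM, only 8 were lower without overlap (24.1%) and 1, Rpl7l1, was higher (22.4%). The median was 0.13 without cortical tamoxifen A, with Rpl24 called lower (12.7%) and 0 higher (8.93%), and -0.52 without cortical tamoxifen B, with 7 called lower (1.29%). Rpl31 stood at 208 and 221 TMM-scaled CPM in the hippocampal tamoxifen samples, against 339 and 239.6 TMM-scaled CPM in the cortical tamoxifen samples, with a log2 fold change of -0.43 (SE 0.18, adjusted p = 0.220); Rpl34 and Rps15 followed with -0.40 and -0.37.

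Of the marker lists of other cells, that of microglia differed between the control regions. Its 6 genes (Cx3cr1, P2ry12 and Tmem119 among them) summed to 1298 and 1919 CPM in hippocampal controls, against 563 and 631 CPM in cortical controls, and 5 of the 6 were called higher (2.71% of all genes). Neuronal genes summed to 837 and 785 CPM in hippocampal controls, against 1150 and 1189 CPM in cortical controls, with 0 called, and choroid plexus genes to 17134 and 8027 CPM, against 936 and 5.96 CPM, also with 0 called. The sums overlapped for oligodendrocytes, with 45857 and 72555 CPM in hippocampal controls, against 53227 and 52875 CPM in cortical controls. They overlapped likewise for astrocytes (6852 and 7140.4 CPM, against 6818 and 6956 CPM, with Gfap called higher) and for endothelium (453 and 571 CPM, against 479.9 and 423 CPM). The part of these differences in the ribosomal protein values was not tested.

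Other genes of translation were read from the same fit. The shares of all genes called in edgeR were 0% in the 3 tamoxifen comparisons, 2.71% higher and 3.48% lower between control regions, and 0.426% higher and 0.692% lower between tamoxifen regions. Of 20 other genes with TOP mRNAs, 0 were called in any of the 5 comparisons, and in the control regions 17 were negative with a median of -0.23. Among them, chosen after their values were seen, the elongation factor Eef2 had a log2 fold change of -0.25, and Eef1a1, which brings aminoacyl-tRNA to the ribosome, had 0.079. Of 31 initiation factors, Eif5b, which joins the subunits, was the only gene called, with 90.5 and 83.6 CPM in the hippocampal tamoxifen samples, 88.7 and 84.8 CPM in the hippocampal control samples, 98.6 and 122 CPM in the cortical tamoxifen samples and 104 and 105 CPM in the cortical control samples on gene-count CPM; it was lower in hippocampal than in cortical controls, with a log2 fold change of -0.66 (SE 0.11, adjusted p = 0.0327), and 1 of 31 is near the 3.48% of all genes called lower there.

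Of 51 ribosome biogenesis genes and 74 tested mitochondrial ribosomal protein genes, 0 were called in any comparison, against the shares of all genes just given; in the control regions their medians were -0.0044 and -0.05, closer to 0.0016, the median of all genes, than the -0.38 of the cytosolic genes. Of 14 tested genes of mTOR control, 0 were called, with medians between -0.11 and 0.03 over the 5 comparisons, and Larp1 and Mtor, picked with their values in view, had log2 fold changes of -0.12 and -0.0055 between control regions. Of ribosomal proteins whose names lie outside the rule, Rps3a1 had -0.32, Fau -0.38 and Rack1, listed as Gnb2l1, -0.17.

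Copies in the genome set a limit to all these counts. In GENCODE M21, 73 of the 80 genes had at least 1 other annotated gene sharing 5% or more of their 50-base words. These were counted as copies, 518 in all, and the median gene shared 31.1% of its words with another gene. The count also takes in genes that overlap the member itself, such as Snora7a within Rpl32 and Gm45713 over Rpl13a. It is therefore not a count of pseudogenes elsewhere in the genome. Of the copies, 351 had a row in the files, 64 reached 1 CPM and 14 reached 10 CPM in a sample, and the copies summed to 315 to 438 CPM per sample. Reads mapped to more than 1 place, 27.5 to 35.4% of all counts per library, were given to no gene.

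For 3 genes with strongly varying copies, 75 coding bases are printed beside the same bases of the copies, from GENCODE M21 transcripts, sense strand 5′ to 3′; capitals mark every position at which any of the sequences shown together differ. The copies are annotated as processed pseudogenes, and positions count from the first base of the start codon.
Rplp0 (chromosome 5, bases 780 to 854): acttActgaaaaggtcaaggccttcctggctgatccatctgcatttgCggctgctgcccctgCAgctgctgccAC
Gm8730 (chromosome 8): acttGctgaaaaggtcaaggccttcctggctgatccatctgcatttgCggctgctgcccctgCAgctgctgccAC
Gm9625 (chromosome 13): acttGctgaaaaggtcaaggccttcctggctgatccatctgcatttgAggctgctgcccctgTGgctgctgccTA
Rpl37a (chromosome 1, bases 124 to 198): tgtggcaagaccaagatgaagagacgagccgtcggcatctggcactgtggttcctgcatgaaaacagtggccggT
Gm4149 (chromosome 13): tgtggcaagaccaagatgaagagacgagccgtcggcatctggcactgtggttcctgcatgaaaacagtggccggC
Rpl15 (chromosome 14, bases 82 to 156): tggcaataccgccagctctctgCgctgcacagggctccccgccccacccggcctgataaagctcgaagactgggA
Gm10020 (chromosome 15): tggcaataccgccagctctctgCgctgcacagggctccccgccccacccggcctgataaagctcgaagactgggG
Rpl15-ps2 (chromosome 9): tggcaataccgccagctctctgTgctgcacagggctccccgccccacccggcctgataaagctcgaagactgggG
Over the whole coding sequence Gm8730 differed from Rplp0 at 12 of 951 bases and Gm9625 at 96 of 951, Gm4149 from Rpl37a at 1 of 276, Gm10020 from Rpl15 at 2 of 612 and Rpl15-ps2 at 8 of 610, compared without gaps. A read inside a stretch that is identical between gene and copy cannot be given to either.

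Rplp0, the protein that carries the stalk and a common normalisation gene, varied most of the 80. It stood at 368 and 161 CPM in the hippocampal tamoxifen samples, 295 and 170.4 CPM in the hippocampal control samples, 329 and 159.9 CPM in the cortical tamoxifen samples and 236 and 140.2 CPM in the cortical control samples. On TMM scaling it had a log2 fold change of 0.29 (SE 0.59, adjusted p = 0.912) in the cortex, and in the hippocampus a log2 fold change of 0.21 (SE 0.59, adjusted p = 1). Sample A was above sample B in every group, and its copies Gm8730, Gm9625 and Gm14165, chosen after their values were seen, ran the other way. Together they stood at 2.68 and 110.3 CPM in the hippocampal tamoxifen samples, 69.3 and 114 CPM in the hippocampal control samples, 2.33 and 111 CPM in the cortical tamoxifen samples and 56.5 and 109 CPM in the cortical control samples. The copies had 3 levels, near 0 in tamoxifen sample A of both regions, intermediate in control sample A of both regions and high in every sample B. Adding copies to Rplp0 brought the ratio of the highest to the lowest sample to 1.5, against 2.6 for Rplp0 alone. With the copies described here and below added, the ratio was higher for Rpl15 (1.42, against 1.251 alone), Rpl11 (1.22, against 1.10) and Rplp1 (1.34, against 1.33). The ratio was lower for Rpl37a (1.24, against 1.45), Rpl27a and Rps13, and barely lower for Rpl31.

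Rpl21, a large subunit protein also on chromosome 5, likewise had sample A above sample B in every group. It stood at 611 and 379 CPM in the hippocampal tamoxifen samples, 492 and 354 CPM in the hippocampal control samples, 661 and 376 CPM in the cortical tamoxifen samples and 493 and 379 CPM in the cortical control samples. Over the 8 samples and 13618 genes, Rpl21 was the gene whose log2 level was most like that of Rplp0 (Pearson r = 0.94), and the predicted gene Gm15446, also on chromosome 5, was the most opposed to Rpl21 (r = -0.97). These genes were chosen after their values were seen, and both values describe 8 samples that share 4 groups.

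Rpl37a stood at 151 and 208 CPM in the hippocampal tamoxifen samples, 219 and 219.9 CPM in the hippocampal control samples, 173 and 205 CPM in the cortical tamoxifen samples and 158 and 161 CPM in the cortical control samples. Gm4149 stood at 43.3 and 23.2 CPM in the hippocampal tamoxifen samples, 22.0 and 21.8 CPM in the hippocampal control samples, 51.1 and 24.2 CPM in the cortical tamoxifen samples and 43.1 and 45.1 CPM in the cortical control samples. The copy was high where Rpl37a was low: hippocampal tamoxifen A, cortical tamoxifen A and both cortical controls had more of the copy than the other 4 samples. For Rpl15, the 2 copies together stood at 0.0476 and 6.61 CPM in the hippocampal tamoxifen samples, 15.3 and 0.0370 CPM in the hippocampal control samples, 0.0359 and 6.95 CPM in the cortical tamoxifen samples and 13.8 and 0.0236 CPM in the cortical control samples, while Rpl15 itself stayed at 91.0 to 114 CPM. For the copies of Rplp0 and Rpl15, hippocampal and cortical samples of the same treatment and letter had like levels. This did not hold for Gm4149 in the controls, nor for Rpl31-ps8, a copy of Rpl31, in the B samples. Rpl31-ps8 was at 14.8 CPM in hippocampal tamoxifen B against 1.56 CPM in cortical tamoxifen B, and at 1.45 CPM in hippocampal control B against 14.9 CPM in cortical control B.

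**Figure D5:**
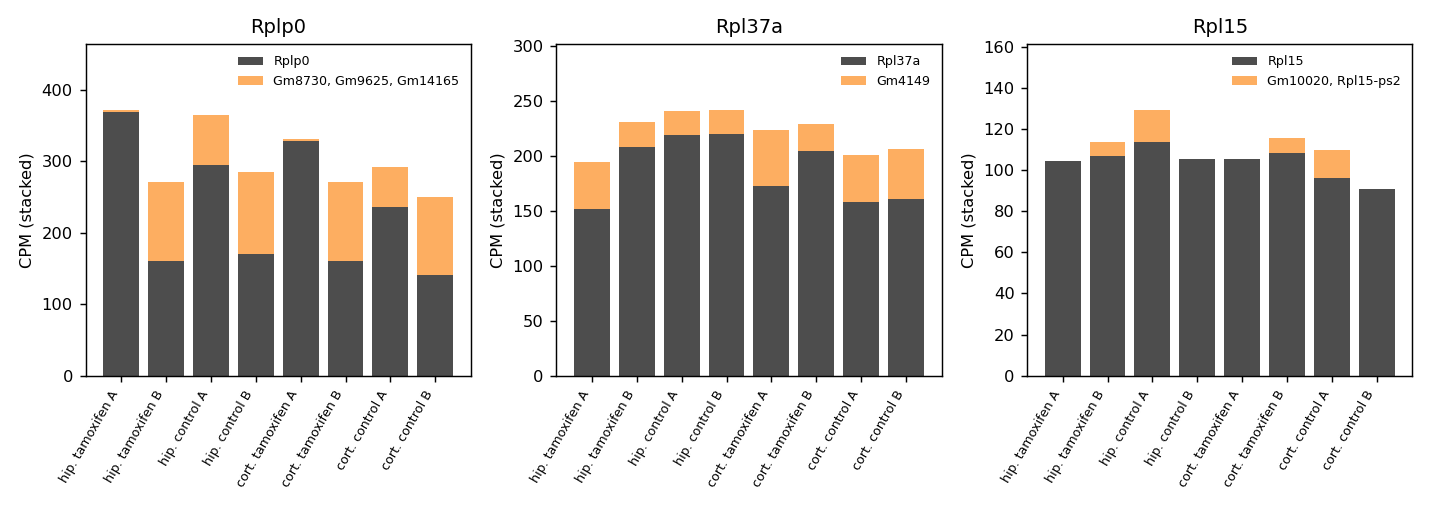
CPM of Rplp0, Rpl37a and Rpl15 (dark) with their copies stacked on top (orange) in each of the 8 samples. The copies of Rplp0 are near 0 in both tamoxifen A samples and reach 114 CPM in hippocampal control B, where Rplp0 is low.

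Further copies, also chosen after their values were seen, differed strongly between samples. Gm10036, a copy of Rpl11, was at 0.799 and 0.877 CPM in the hippocampal tamoxifen samples, 18.8 and 35.7 CPM in the hippocampal control samples, 0.934 and 0.832 CPM in the cortical tamoxifen samples and 18.8 and 40.1 CPM in the cortical control samples, so that all controls were above all tamoxifen samples in both regions; Rpl11 itself had the 274 to 300.5 CPM given above. Gm11942, a copy of Rplp1, was at 11.4 CPM in hippocampal tamoxifen A and 14.6 CPM in cortical tamoxifen A and at most 0.910 CPM elsewhere. Rps13-ps2 reached 13.8 CPM in cortical control B alone. Gm7536 reached 16.2 CPM in hippocampal control A, the sample in which Rpl27a, the gene it copies, was lowest at 271 CPM, and lay at 2.79 to 4.21 CPM in the other 7.

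The A samples exceeded the B samples for many of the 80 genes. On gene-count CPM, 34 of 80 were higher in A in all 4 groups and 1 was lower, which is 43.8% with the same sign, against 6.44% of all tested genes. The labels do not say what, if anything, the letters share across groups.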

How the data were processed

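Total RNA was extracted with Trizol and checked on a Bioanalyser, per the labels' protocols, and STAR, HTSeq and mm10 are named in the submitters' processing notes; versions, annotation release and strand setting were not found in the sources at hand. Per the file headers, each of 16 deposited tables holds raw counts per gene and RPKM, which the authors scaled by exon length and library. Rows that name no gene (27.5 to 35.4% of counts not unique, 3.64 to 7.93% without feature, 1.38 to 1.86% ambiguous) were left out. CPM are counts scaled to 1e+06 counts in gene rows, and 0.5 was added before log2.

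Neighbouring libraries of a group were summed because their counts differed by 3.12 to 6.50 times the Poisson variance, against 13.6 to 748 times for other pairs of a group; this was decided from the values. The 8 samples, with 33236178 to 57195203 gene counts per library, were fitted with edgeR 4.0.16 (R 4.3.3; filterByExpr, 18074 genes; TMM; robust quasi-likelihood; 1 mean per group), with Benjamini-Hochberg adjustment over all genes at 0.05. Each SE was obtained from the fold change and its quasi-likelihood F statistic (log2 fold change over the root of F). Named genes were the 3 or 4 highest and lowest log2 fold changes of each comparison, the 5 highest and 3 lowest levels per length, the 4 largest and smallest SDs, and fixed stalk, paralog and special members; a few of these are not reported here. Members, lists and rules were chosen with earlier results of these data known. Alternatives were other scalings, no filter, DESeq2 1.42.0, 16 libraries in edgeR and in limma 3.58.1, the sample letter as a block, and each sample left out. Copies are other genes sharing at least 5% of a member's 50-base words in GENCODE M21, also where they overlap the member. The 71 promoters of 60 matched genes come from RefSeq GRCm38.p6.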

Additional observations from a re-analysis of the deposited data

How the results depend on the processing

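The number of members called stayed at 0 in the hippocampal tamoxifen comparison and in the difference of the effects under all alternatives run, though for the difference DESeq2 gave 68 of the 80 an adjusted p. In the cortical tamoxifen comparison it was 0 to 48 with 1 sample left out, with medians of -0.51 to 0.14; 48 was the count without cortical tamoxifen A. Between control regions it was 1 with library size alone, where the median was 0.00015, 2 with DESeq2, 50 in edgeR on 16 libraries, 34 in limma voom, and 0 to 50 with 1 sample left out. Between tamoxifen regions it was 8 in edgeR on 16 libraries and 0 to 7 with 1 sample left out, with medians of -0.52 to 0.13. The median of the difference was -0.14 to 0.53 with 1 sample left out. Cortical tamoxifen A and B gave the lowest and highest medians of these ranges and the highest counts, and the cause was not tested.

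The log2 difference of the summed level in the cortex was -0.10 without mitochondrial genes and -0.14 on TMM library sizes. Between control regions it was -0.14 without mitochondrial genes, -0.39 on TMM library sizes and, for summed RPKM, 0.11. Between tamoxifen regions it was -0.24 on TMM library sizes, where the cortical tamoxifen samples stood at 3.27 and 2.00%. With 1 sample left out, the difference on all gene counts was -0.12 to 0.12 in the cortex and -0.15 to 0.092 between tamoxifen regions. These ranges do not apply to the TMM values. Of the named genes in the cortex, Rps27l was 0.033 with library size alone and Rpl7l1 -0.0055 with upper-quartile scaling. With 1 sample left out, cortical values ran from -0.44 to 0.12 for Rps27l, -0.63 to 0.65 for Rpl21, -0.062 to 0.16 for Rpl37a, -0.018 to 0.088 for Rpl7l1 and -0.65 to 0.86 for Rplp0. Hippocampal values ran from -0.017 to 0.088 for Rpl24, -0.085 to 0.52 for Rpl21 and -0.46 to 0.66 for Rplp0, and kept their sign for Rpl37a (-0.54 to -0.010), Rps27l (-0.53 to -0.033) and Rpl7l1 (-0.18 to -0.059). None of the named genes that changed sign had passed the threshold.

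With the sample letter as a replicate block, 0 members were called in all 5 comparisons, with medians of -0.16 in the cortex, 0.0022 in the hippocampus, 0.16 for the difference, -0.39 between control regions and -0.20 between tamoxifen regions. The letters were not taken as pairs: same-lettered deviations correlated at 0.16 to 0.23 over genes in the cortical and control-region comparisons and at -0.37 to -0.16 in the hippocampal and tamoxifen-region ones. With crossed letters in hippocampal tamoxifen, an alternative chosen after seeing the data, 0 members were called, and 0 genes in all in the hippocampal and 121 in the tamoxifen-region comparison. Counts limit low members most: Rps27l and Rpl24 have the lowest CPM of the 80. Leaving out a sample leaves a group with 1, which is assumed to vary like the other groups. Reads that fit several copies were not counted.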
